A study of Mus musculus with 6 samples.

Results

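Integrins are cell-surface receptors made of an α and a β subunit, and together with the proteins that tie them to actin they form 36 of the 18476 genes in the table. The members were chosen by gene symbol and comprise 7 integrin subunits of leukocytes, 1 platelet subunit, 17 subunits that bind matrix on mural, stromal, endothelial and epithelial cells, and 11 linkers of the focal adhesion. All 36 were in the table. Reads came from bulk RNA sequencing of femoral arteries of wild-type C57BL/6 mice collected 3 days after wire injury, with 3 libraries from arteries given saline around the vessel and 3 from arteries given vasostatin-2, a fragment of chromogranin A, by the same route. Both groups were injured, and no uninjured artery was compared here. Total estimated counts were between 19333730 and 20105995 per library, so that 3 counts correspond to 0.149 to 0.155 CPM (counts scaled to library size), and all 6 libraries carry 1 batch label. The labels call the cells vascular smooth muscle cells, while the protocol describes RNA of the injured artery, and the libraries held abundant transcripts of other cells: over all 6 libraries the mean was 753 TPM for the smooth muscle actin gene Acta2, 7421 TPM for the myeloid gene Lyz2, 288 TPM for the endothelial gene Pecam1 and 5850 TPM for the fat cell gene Fabp4. TPM, a transcript level scaled to gene length and to the library, is used here for levels.

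Outside the cell an integrin grips matrix or a counter-receptor on another cell. Inside, talin and kindlin bind the β tail and switch the receptor to its high-affinity form, and the complex of Ilk, Pinch and parvin, with vinculin, paxillin, zyxin and focal adhesion kinase, couples it to the actin cytoskeleton. In an injured artery, β2 integrins let leukocytes arrest and crawl on the vessel wall, the platelet integrin binds fibrinogen, and β1 and αv integrins serve the migration of smooth muscle cells through matrix.

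Of the 36 members, RefSeq promoter windows of the build GRCm38.p6 matched 25, in 30 windows that run from 250 bases before to 50 bases after a transcript start. Itgal had no entry. Both strands of each window were searched for GAGGAA, the core bound by the myeloid factor PU.1, and for the CArG box, CC and GG around a run of A or T, which is bound by serum response factor, a regulator of smooth muscle and cytoskeletal genes. GAGGAA was found in 11 of the 30 member windows (36.7%), each of another member, and in 28.3% of all 32851 windows of the same length. The CArG box was found in 3 of the 30 (10.0%), those of Fermt2 and Vcl and 1 of Itgb6, and in 1.63% of all windows. Shown are the window of Itgam, which held 3 copies of GAGGAA, the largest number among the members, and those of the linker genes Vcl and Fermt2, with the matches in capitals, which read TTCCTC where the match is on the other strand. In Itgam the matches begin 84 and 15 bases before the start and 33 bases after it, and the CArG box begins 227 bases before the start in Vcl and 204 bases before it in Fermt2. A match describes the letters of the window and not a bound site.
Itgam, chr7:128062390-128062689, plus strand: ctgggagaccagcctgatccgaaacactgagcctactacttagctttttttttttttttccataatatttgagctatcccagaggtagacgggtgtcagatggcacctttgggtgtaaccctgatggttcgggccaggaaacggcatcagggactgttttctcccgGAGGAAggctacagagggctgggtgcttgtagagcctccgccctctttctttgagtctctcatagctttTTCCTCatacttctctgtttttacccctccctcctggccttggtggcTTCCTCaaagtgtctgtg
Vcl, chr14:20929148-20929447, plus strand: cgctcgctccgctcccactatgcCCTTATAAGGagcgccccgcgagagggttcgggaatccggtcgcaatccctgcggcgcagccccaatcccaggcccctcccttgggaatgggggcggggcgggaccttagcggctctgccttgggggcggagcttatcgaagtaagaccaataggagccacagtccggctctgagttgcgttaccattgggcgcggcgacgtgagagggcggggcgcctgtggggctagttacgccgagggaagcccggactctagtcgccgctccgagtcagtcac
Fermt2, chr14:45530016-45530315, minus strand: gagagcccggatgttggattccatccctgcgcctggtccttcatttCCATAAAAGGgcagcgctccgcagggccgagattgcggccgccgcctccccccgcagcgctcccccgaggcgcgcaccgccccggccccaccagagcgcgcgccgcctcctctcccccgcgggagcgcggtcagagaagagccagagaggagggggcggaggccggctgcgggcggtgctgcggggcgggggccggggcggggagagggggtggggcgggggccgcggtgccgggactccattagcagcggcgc

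The comparison asked which members differed in the injured artery between vasostatin-2 and saline. With edgeR's quasi-likelihood test, 34 of the 36 members had enough counts to be tested, and none had an adjusted p under 0.05, as was so for 0 of all 14557 genes tested (0%). At an unadjusted p under 0.05 there was 1 member, Itgal, beside 1040 of 14557 genes (7.14%). In CPM the groups did not overlap in 1 member, again Itgal, beside 1861 of 14557 genes (12.8%). By DESeq2 no member was called either, while 113 of the 13973 genes with a defined adjusted p were (0.809%). At none of these limits was the members' share above that of all genes. The members' fitted log2 fold changes, vasostatin-2 over saline, were above 0 in 15 and below 0 in 19, with a median of −0.01 beside −0.00068 for all genes tested, and 27 of the 34 lay within 0.2 of 0.

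**Figure D1:**
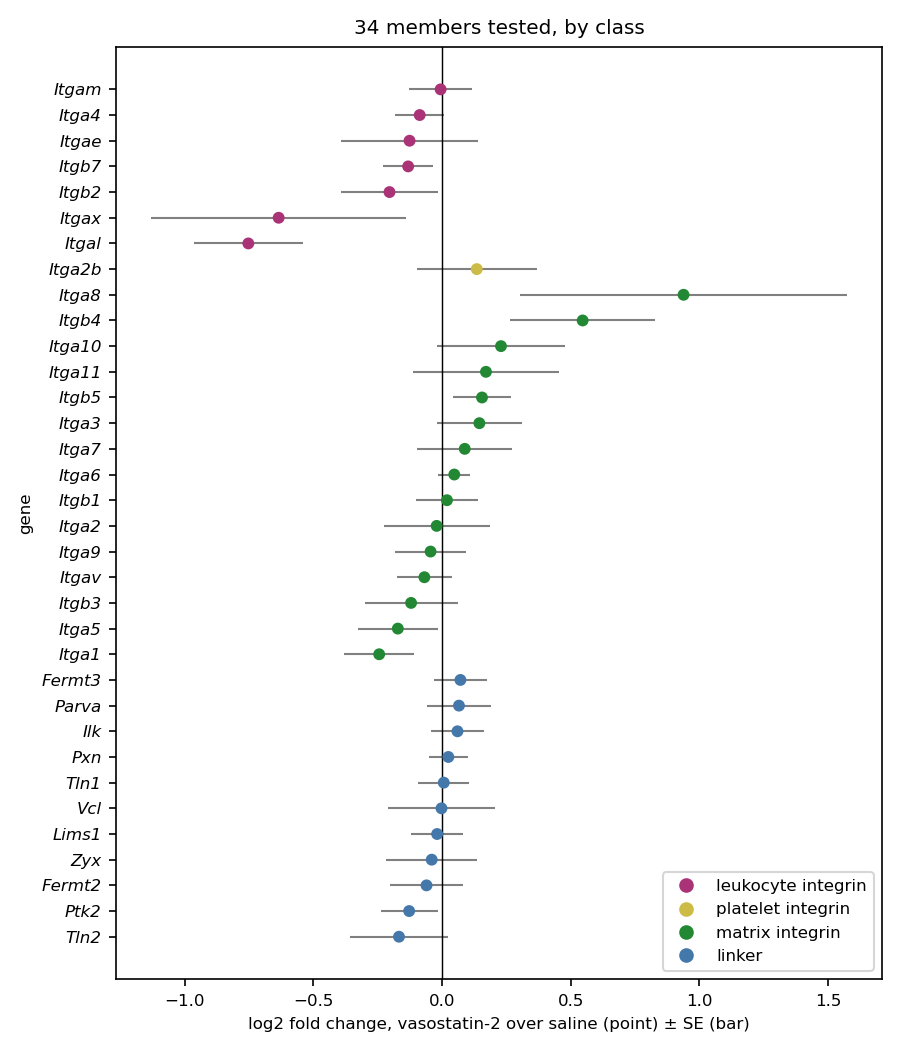
Fitted log2 fold change of vasostatin-2 over saline for the 34 members tested (points, coloured by class) with the standard error (bars), sorted within each class. All 7 leukocyte integrins lie at or left of 0, the 11 linkers lie within 0.2 of 0, and Itga8, Itgb4, Itgal and Itgax lie farthest out.

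Among leukocyte integrins the value that stood out was that of Itgal, the αL chain of LFA-1, which lymphocytes, natural killer cells, neutrophils and monocytes use to hold on to Icam1 and Icam2. Itgal was at 21.3, 22.01 and 18.5 TPM with saline and 16.5, 10.6 and 9.67 TPM with vasostatin-2. The highest vasostatin-2 library lay below the lowest saline library, with means of 20.6 ± 1.86 TPM with saline and 12.2 ± 3.72 TPM with vasostatin-2 (SD, n = 3 each). The log2 fold change was −0.75, SE 0.21 and unadjusted p 0.00993, with an adjusted p of 0.586 by edgeR, so the difference did not pass the test across all genes, although 3 of 3 vasostatin-2 libraries were lower. By DESeq2 the adjusted p was 0.0854, and the authors' deposited table gives a p-value of 0.000859 and a q-value of 0.108 for Itgal. In the coordinates of the table (GRCm38.p6) Itgal lies on chromosome 7 from 127296139 to 127335137, the chromosome that also carries its relatives Itgam and Itgax, and no other gene of the GENCODE annotation shares its exons. In bulk RNA, fewer cells of a type and less RNA per cell cannot be told apart.

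Itgb2, the β2 chain that αL, αM and αX all need to reach the surface, was at 234, 349.7 and 258 TPM with saline and 221, 251 and 261 TPM with vasostatin-2. Saline library 2 was the highest, and the groups overlapped (log2 fold change −0.20, SE 0.19 and unadjusted p 0.314). Itgam, the αM chain of Mac-1 on neutrophils and macrophages and the gene whose window with 3 GAGGAA matches is shown above, was at 203, 217 and 204 TPM with saline and 189, 192 and 238 TPM with vasostatin-2. The group means were nearly equal and the vasostatin-2 libraries took both ends of the range (log2 fold change −0.0055, SE 0.12 and unadjusted p 0.965). The ratio of Itgal to Itgb2 TPM was 0.0910, 0.0629 and 0.0717 with saline and 0.0747, 0.0421 and 0.0371 with vasostatin-2. The first vasostatin-2 library lay inside the saline range of this ratio and the other two lay below it.

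Itgax encodes the αX chain known as CD11c, found on dendritic cells and on some macrophages. It was at 26.9, 70.7 and 19.5 TPM with saline and 28.02, 28.4 and 19.6 TPM with vasostatin-2. Saline library 2 stood alone at the top, while the other five lay between 19.5 and 28.4 TPM, and the log2 fold change of −0.63 turned to 0.19 without that library. Itga4, the α4 chain that binds Vcam1, was at 18.6, 18.4 and 20.1 TPM with saline and 19.2, 18.8 and 15.5 TPM with vasostatin-2, and its groups overlapped. Itgb7, a partner of α4 in gut-homing lymphocytes, was at 28.8, 30.5 and 29.1 TPM with saline and 23.8, 28.2 and 28.5 TPM with vasostatin-2. For Itgb7 the vasostatin-2 libraries were all below the saline libraries in TPM but not in CPM, and the log2 fold changes were −0.087 for Itga4 and −0.13 for Itgb7 (unadjusted p 0.223 by edgeR). Itgae, the αE chain of tissue-resident lymphocytes, was the lowest of the class, between 1.13 and 2.0 TPM, and its groups overlapped.

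All 7 leukocyte integrins had a fitted log2 fold change below 0, with a median of −0.13 (all genes, −0.00068), and 1 of the 7 had an unadjusted p under 0.05. That count of 7 rested in part on the second saline library, which was the highest of the 6 libraries in 4 of the 7 genes. Without it 4 of 7 were below 0, the exceptions being Itgam, Itgax and Itgb2, with values of 0.067, 0.19 and 0.035, and the median was −0.07. Leaving out any other single library left between 5 and 7 below 0, and leaving out library 3 of each group together left 6, with Itga4 above 0. The values of Itgal itself stayed below 0 in every one of these fits, between −1.03 and −0.61, with unadjusted p-values from edgeR between 2.39e-04 and 0.0392.

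**Figure D2:**
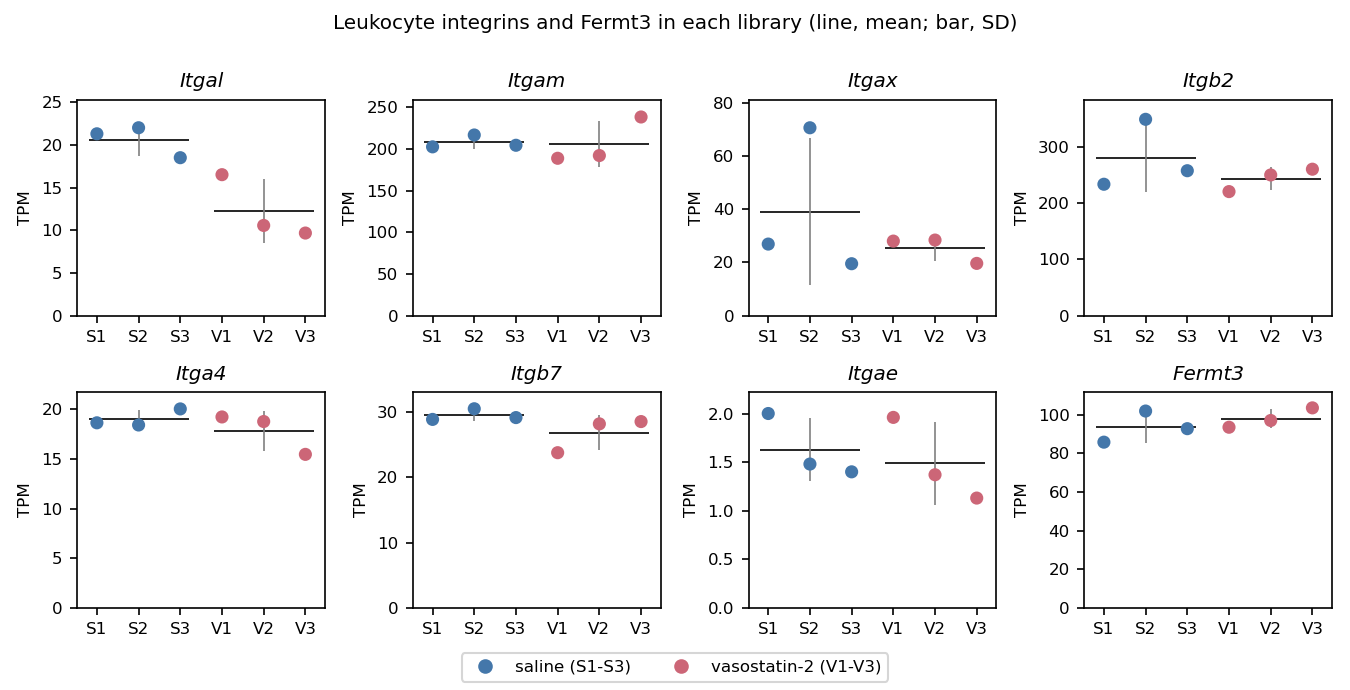
TPM (vertical axes, from 0) of the 7 leukocyte integrins and of the blood-cell kindlin Fermt3 in each library, saline in blue and vasostatin-2 in red. Lines mark the group means and bars the SD of 3 libraries. In the Itgal panel every vasostatin-2 point, at 16.5 TPM or below, lies under every saline point, at 18.5 TPM or above. In the Itgb7 panel the groups are separated by a far smaller gap (28.5 against 28.8 TPM).

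Among markers of the cells that carry LFA-1, all 12 tested neutrophil markers of 14 had log2 fold changes below 0, 5 with an unadjusted p under 0.05, and their summed level was 762 to 1242 TPM with saline and 334 to 787 TPM with vasostatin-2, led by S100a9 (211 TPM on average) and S100a8 (153 TPM). Of these, 1 passed the adjusted threshold of DESeq2, Il1r2, at 0.0110, while its adjusted p was 0.548 by edgeR. Within vasostatin-2 the neutrophil sum was 787, 334 and 427 TPM in libraries 1, 2 and 3. Like Itgal it was highest in library 1, while libraries 2 and 3 stood in the opposite order to Itgal. Of 11 T and natural killer cell markers, 10 were below 0 and 2 of these, Gzma and Nkg7, had an unadjusted p under 0.05 and no overlap between groups. The summed level of the 11 was 61.3 to 110 TPM with saline and 57.0 to 73.0 TPM with vasostatin-2, with Il7r (15.3 TPM) and Gzma (15.0 TPM) the highest. Within vasostatin-2 this sum was highest in library 2, unlike Itgal. Within saline both sums were highest in library 2 and lowest in library 3, as Itgal was. In saline libraries 1, 2 and 3 the neutrophil sum was 1066, 1242 and 762 TPM. The T and natural killer cell sum there was 78.1, 110 and 61.3 TPM. Of 14 monocyte and macrophage markers, led by Lyz2 and Ctss, 11 were above 0, 6 of them with an unadjusted p under 0.05, and the summed level was 13378 to 19315 TPM with saline and 16796 to 17938 TPM with vasostatin-2. Of 6 dendritic cell markers, led by Ccr7 and Cd209a, 5 were below 0, none with an unadjusted p under 0.05, and the summed level was 30.7 to 51.5 TPM with saline and 34.8 to 43.5 TPM with vasostatin-2. Saline library 2, the highest for Itgax, had the lowest dendritic cell sum of the 6 libraries and the highest monocyte and macrophage sum. Of all genes tested, 7.14% had an unadjusted p under 0.05 by edgeR and 12.8% had groups that did not overlap in CPM. By DESeq2, 0.809% of genes with a defined adjusted p passed the adjusted threshold. None of these defining markers was at 0 in all 6 libraries, and their part in the values of Itgal and Itgax was not tested.

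Itga2b, the αIIb chain that makes the platelet fibrinogen receptor with β3, was at 5.38, 7.41 and 7.06 TPM with saline and 5.80, 6.38 and 9.60 TPM with vasostatin-2. The third vasostatin-2 library was the highest and the groups overlapped (log2 fold change 0.13, SE 0.23 and unadjusted p 0.582). Itgb3, its partner, which vascular cells also pair with αv, was at 18.1, 14.8 and 20.6 TPM with saline and 13.1, 15.0 and 20.7 TPM with vasostatin-2. The groups overlapped for Itgb3 as well. The platelet granule transcript Pf4 was at 909, 1114 and 1033 TPM with saline and 642, 719 and 739 TPM with vasostatin-2. Ppbp, another, was at 51.3, 66.6 and 69.4 TPM with saline and 30.8, 29.0 and 38.5 TPM with vasostatin-2. Both were lower with vasostatin-2 in all 3 libraries, with unadjusted p-values from edgeR of 0.00280 and 9.28e-04 and adjusted p-values of 0.458 and 0.422. By DESeq2 both passed the adjusted threshold, at 0.0134 and 7.68e-04, beside 0.809% of genes with a defined adjusted p. Of the 8 platelet markers 7 were below 0, those 2 with an unadjusted p under 0.05 by edgeR, beside 7.14% of all genes. The summed level of the 8 was 970 to 1213 TPM with saline and 688 to 800.2 TPM with vasostatin-2, most of it Pf4. Their mean log2 CPM, in which each marker counts alike, overlapped between groups. It was 1.66, 3.07 and 2.20 with saline and 1.93, 2.17 and 2.51 with vasostatin-2. The part of platelets in the values of Pf4 and Ppbp was not tested.

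The matrix-binding integrins had the larger summed TPM in every library, but they had more genes, and Itgb1 alone gave 316 to 433 TPM. Their 17 genes summed to 988, 768 and 957 TPM with saline and 819, 930 and 977 TPM with vasostatin-2, against 534, 710 and 551 TPM and 499, 530 and 574 TPM for the 7 leukocyte integrins. The ratio of leukocyte to matrix integrin TPM was 0.541, 0.924 and 0.576 with saline and 0.610, 0.570 and 0.587 with vasostatin-2. Saline library 2 thus had a far larger leukocyte share, and of the other two saline libraries 1 lay below the vasostatin-2 values and 1 inside their range. Leukocyte integrins made up 35.0% to 47.8% of integrin TPM with saline and 36.1% to 37.7% with vasostatin-2, a percentage of transcripts and not of cells. Among the 15 matrix integrins tested, 9 log2 fold changes were above 0 and 6 below, with a median of 0.05, and none had an unadjusted p under 0.05. The leukocyte median was −0.13, and the difference between the classes was not tested, since the members were chosen with results known.

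**Figure D3:**
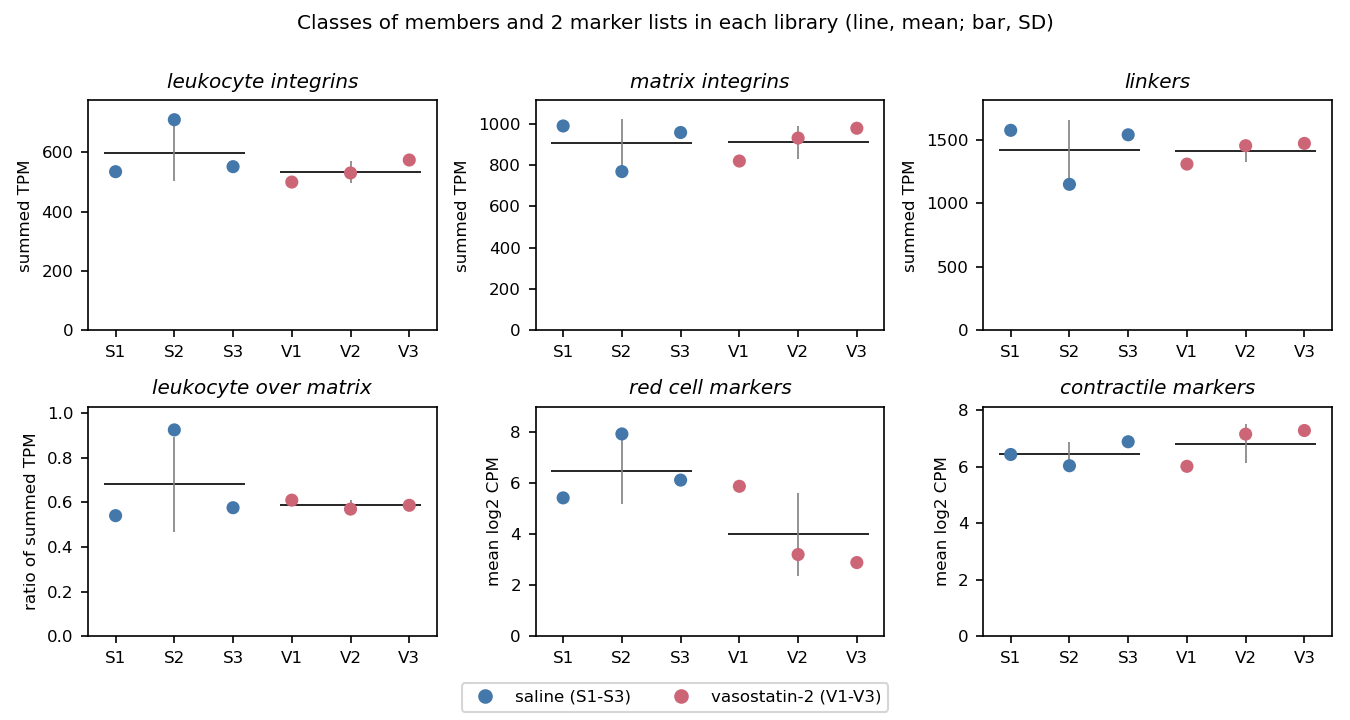
Summed TPM of the leukocyte integrins, matrix integrins and linkers, the ratio of the leukocyte to the matrix sum, and the mean log2 CPM of the red cell and contractile smooth muscle markers in each library. Lines mark the group means and bars the SD of 3 libraries. The second saline library has the highest leukocyte sum (710 TPM), the lowest matrix and linker sums (768 and 1151 TPM) and the highest red cell markers (7.91), while the groups overlap in every panel.

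Itgb1, the β1 chain that most collagen, laminin and fibronectin receptors share, had the highest level of all members. It was at 433, 316 and 409.9 TPM with saline and 351, 400.3 and 412 TPM with vasostatin-2. The values of the groups interleaved, and the log2 fold change was 0.019, SE 0.12 and unadjusted p 0.880. Itga9, the α9 chain of a receptor for tenascin C and other ligands, was at 27.2, 20.5 and 25.1 TPM with saline and 19.6, 25.5 and 26.1 TPM with vasostatin-2. Its groups overlapped, with a log2 fold change of −0.044.

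Among receptors for the RGD tripeptide of fibronectin and vitronectin, Itga5 and Itgb5 led. Itga5, the α5 chain of the fibronectin receptor, was at 197, 136 and 198 TPM with saline and 133, 155 and 178 TPM with vasostatin-2. The second saline and the first vasostatin-2 libraries were the lowest, and the log2 fold change was −0.17, SE 0.16 and unadjusted p 0.307. The ratio of Itga5 to Itgb1 TPM was 0.455, 0.430 and 0.482 with saline and 0.378, 0.387 and 0.433 with vasostatin-2, with the third vasostatin-2 library just above the lowest saline library. Itgb5, the β5 chain that pairs with αv to bind vitronectin, was at 139, 131 and 110.1 TPM with saline and 129, 146 and 142 TPM with vasostatin-2. Its lowest value was in the third saline library (log2 fold change 0.16, SE 0.11 and unadjusted p 0.214), and Itgav, the shared αv chain, ran from 22.9 to 30.8 TPM with saline and from 23.6 to 25.3 TPM with vasostatin-2.

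Itga8 encodes the α8 chain, which smooth muscle and mesangial cells use to bind nephronectin and fibronectin. It was at 1.70, 1.22 and 3.29 TPM with saline and 1.00, 5.27 and 5.34 TPM with vasostatin-2. Vasostatin-2 libraries 2 and 3 were the highest and the first was the lowest, with all saline libraries between, and the log2 fold change of 0.94, SE 0.64 and unadjusted p 0.185 was the largest above 0 among members and also the least precise. The 10 contractile smooth muscle markers, led by Acta2 and Tagln, were all above 0, none with an unadjusted p under 0.05, and their mean log2 CPM was 6.43, 6.03 and 6.88 with saline and 6.01, 7.14 and 7.27 with vasostatin-2. Itga8 ordered the 6 libraries in the same way as this marker list, and the part of smooth muscle content in its values was not tested. With single libraries left out the log2 fold change of Itga8 ran from 0.63 (without vasostatin-2 library 3) to 1.43 (without saline library 3). Without vasostatin-2 library 1, the lowest of the 6, it was 1.39 with an unadjusted p of 0.0112 and an adjusted p of 0.563 by edgeR. Leaving out any other single library gave unadjusted p-values from edgeR between 0.0871 and 0.428.

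Itgb8, the β8 chain that with αv activates latent TGF-β, and Itgb6, its epithelial relative, did not reach the count filter and were not tested. Itgb8 had 7, 4 and 86 counts with saline and 8, 8 and 7 counts with vasostatin-2. The third saline library alone held 86 counts. It was also the library with the highest Schwann cell markers: 7 of 8 such markers were below 0 with vasostatin-2, none with an unadjusted p under 0.05, and their summed level was 204 to 990 TPM with saline and 242 to 319 TPM with vasostatin-2. The highest of these markers on average was Pmp22. The part of nerve tissue in the Itgb8 value was not tested. Itgb6 did not exceed 0.16 TPM in any library.

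Among the laminin receptors, Itgb4, the β4 chain that joins α6 in hemidesmosomes, was at 22.3, 15.6 and 32.7 TPM with saline and 24.0, 37.2 and 40.1 TPM with vasostatin-2. Vasostatin-2 libraries 2 and 3 were the highest of the 6, and the first lay between saline libraries. The log2 fold change was 0.55, SE 0.28 and unadjusted p 0.0941, with an adjusted p of 0.729 by edgeR. Without saline library 2 it was 0.35 with an unadjusted p of 0.264 by edgeR. Without saline library 3 it was 0.84 with an unadjusted p of 0.0133 and an adjusted p of 0.554 by edgeR. Itga6, the α6 chain, was at 42.7, 40.5 and 41.9 TPM with saline and 41.0, 43.3 and 44.3 TPM with vasostatin-2. It was the steadiest member, with a log2 fold change of 0.048 and an SE of 0.06. Itga7, the laminin receptor of smooth and skeletal muscle, was at 23.3, 27.9 and 34.9 TPM with saline and 36.8, 27.4 and 27.2 TPM with vasostatin-2. The skeletal muscle markers, led by Acta1 and Tnnt3, were far higher in the third vasostatin-2 library (1340 summed TPM against 83.8 to 143 TPM in the others), and Itga7 was not raised in it. Itga3 ran from 15.7 to 21.8 TPM with saline and from 15.8 to 22.5 TPM with vasostatin-2, so all 4 laminin receptor genes had fitted values above 0 and none an unadjusted p under 0.05.

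**Figure D4:**
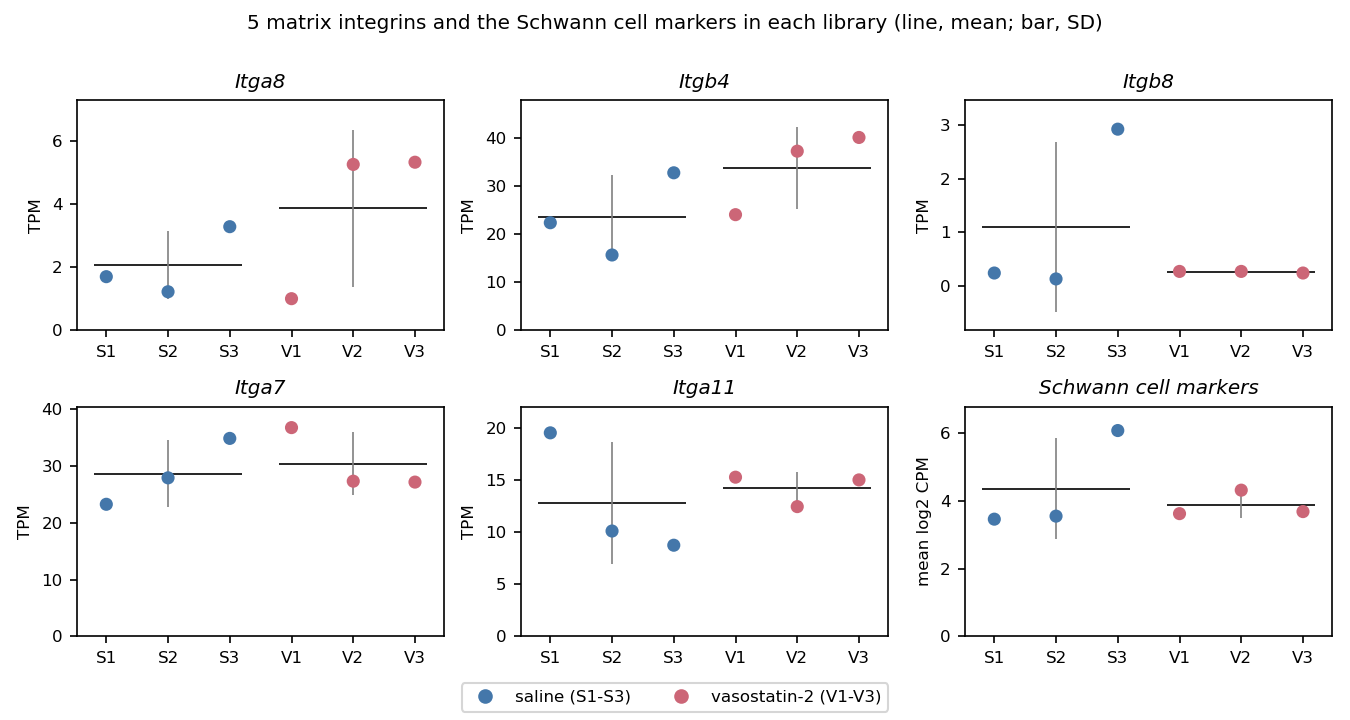
TPM of Itga8, Itgb4, Itgb8, Itga7 and Itga11 and the mean log2 CPM of the Schwann cell markers in each library. Lines mark the group means and bars the SD of 3 libraries, which reaches below 0 for Itgb8 in saline because 1 library holds nearly all of its counts. The third saline library is the highest for both Itgb8 (2.92 TPM) and the Schwann cell markers (6.08), and vasostatin-2 libraries 2 and 3 are the highest for Itga8 and Itgb4.

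The 4 collagen receptor genes together had 26.3 to 37.5 TPM per library, the lowest sum among the ligand groups of matrix integrins. Itga11, the α11 chain of fibroblasts and myofibroblasts, was at 19.5, 10.1 and 8.74 TPM with saline and 15.3, 12.4 and 15.0 TPM with vasostatin-2. The first saline library was the highest, and without it the log2 fold change went from 0.17 to 0.58. The unadjusted p was then 0.00622 and the adjusted p 0.479 by edgeR. Leaving out any other single library gave unadjusted p-values from edgeR between 0.460 and 0.870. Itga1, the α1 chain of smooth muscle and capillary endothelium, was at 10.7, 10.6 and 14.9 TPM with saline and 9.33, 10.7 and 10.3 TPM with vasostatin-2. Saline library 3 was the highest, and the log2 fold change was −0.24, SE 0.14 and unadjusted p 0.116. Itga2, the α2 chain best known from platelets and epithelium, ran from 3.21 to 5.38 TPM, and Itga10, a receptor of cartilage, from 2.37 to 4.43 TPM, with overlapping groups in both.

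The log2 fold changes of the 11 linkers all lay within 0.2 of 0, from −0.17 for Tln2 to 0.07 for Fermt3, with 5 above 0 and 6 below and a median of −0.0021. Their summed TPM was 1577, 1151 and 1542 with saline and 1311, 1456 and 1474 with vasostatin-2. In log2 CPM saline library 2 held the lowest value in 9 of the 11 linkers. Without it 10 of 11 linkers were below 0, with a median of −0.09. Fermt2 and Ptk2 then had unadjusted p-values of 0.0263 and 0.0261 by edgeR at log2 fold changes of −0.21 and −0.23. In that fit 1654 genes had an unadjusted p under 0.05, against 1040 with all libraries. The adjusted p of Fermt2 and Ptk2 was not below 0.389 in any setting. Without the first saline library 2 of 11 were below 0, so the direction of the class turned with the library left out.

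Among the activators, Tln1, the talin of most cells, was at 185, 144 and 169.8 TPM with saline and 158, 163 and 176 TPM with vasostatin-2. The vasostatin-2 libraries lay within the saline range (log2 fold change 0.0068, SE 0.10 and unadjusted p 0.947). Tln2, its muscle and brain paralog, was between 11.6 and 21.4 TPM. Fermt2, the kindlin of mesenchymal cells and one of the 2 linkers with a CArG box shown above, was at 101, 65.6 and 101 TPM with saline and 78.8, 87.8 and 87.1 TPM with vasostatin-2. Fermt3, the kindlin of blood cells that leukocyte and platelet integrins need, was at 85.8, 102 and 92.8 TPM with saline and 93.6, 97.0 and 104 TPM with vasostatin-2. In TPM the second saline library was thus the lowest for Fermt2 and the second highest for Fermt3, while in CPM it was the highest for Fermt3. The ratio of Fermt2 to Fermt3 TPM was 1.17, 0.643 and 1.09 with saline and 0.842, 0.904 and 0.841 with vasostatin-2, with the vasostatin-2 libraries between the saline ones.

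Ilk, the pseudokinase at the centre of its complex with Pinch and parvin, was at 301, 228 and 279 TPM with saline and 254, 300.3 and 282 TPM with vasostatin-2. Lims1, which encodes Pinch, was at 93.8, 67.3 and 77.0 TPM with saline and 75.9, 77.9 and 79.1 TPM with vasostatin-2, and Parva, which encodes α-parvin, ran from 59.7 to 86.7 TPM. In TPM the second saline library was the lowest in all 3 genes of the complex and the vasostatin-2 libraries lay inside the saline range. In CPM the second vasostatin-2 library lay above that range for Ilk. The log2 fold changes were 0.060 for Ilk, −0.019 for Lims1 and 0.066 for Parva. Ilk shares exonic bases with the coding genes Rrp8 and Taf10, so part of its count may belong to them with strand unstated.

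In the plaque, Zyx, the zyxin of stressed actin bundles, was at 422, 259 and 437 TPM with saline and 323, 369 and 383 TPM with vasostatin-2. Pxn, the adaptor paxillin, was at 149.7, 134 and 157 TPM with saline and 139, 153 and 154 TPM with vasostatin-2. In both the vasostatin-2 libraries lay inside the saline range in TPM (log2 fold changes of −0.040 and 0.025). In CPM the first vasostatin-2 library lay just below that range for Pxn and the third just above it. Vcl, the vinculin that reinforces talin under load and whose window holds a CArG box, was at 90.9, 47.9 and 81.5 TPM with saline and 63.1, 76.6 and 77.3 TPM with vasostatin-2. Its log2 fold change was −0.0021, SE 0.21 and unadjusted p 0.992, and the spread between saline libraries was the larger one. Ptk2, focal adhesion kinase, was between 31.7 and 44.0 TPM with saline and between 33.4 and 38.5 TPM with vasostatin-2.

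**Figure D5:**
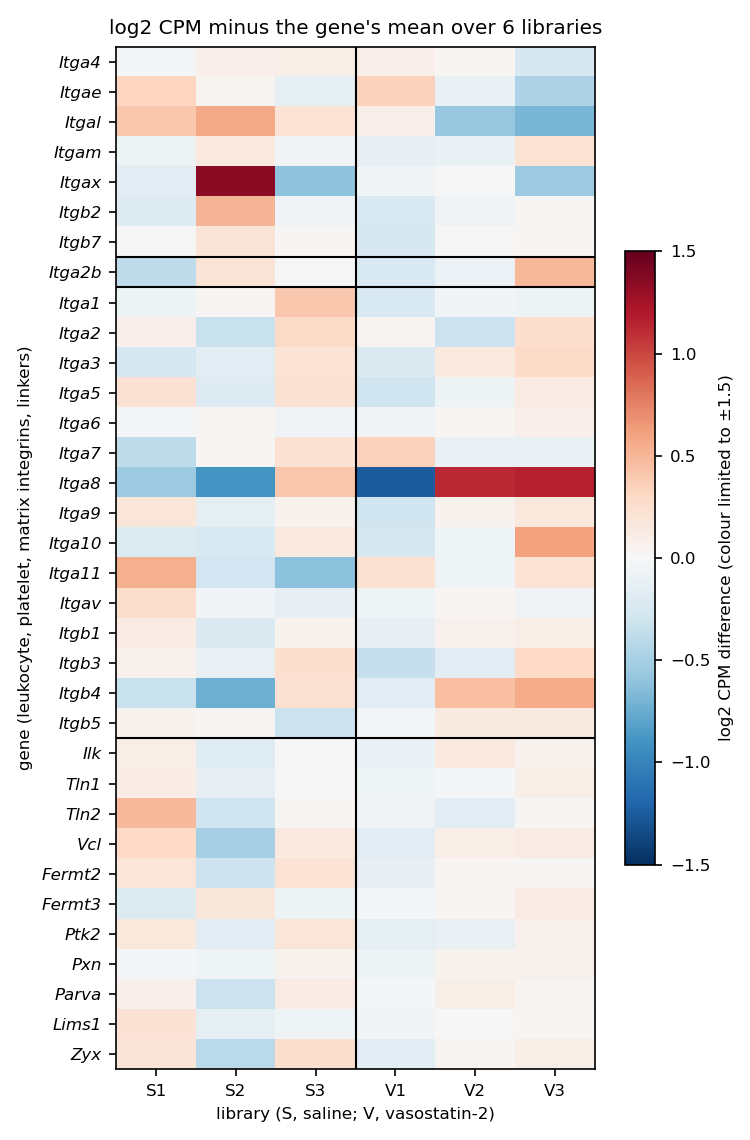
Log2 CPM of each tested member in each library minus that gene's mean over the 6 libraries, with lines between leukocyte, platelet and matrix integrins and linkers, and between saline (left) and vasostatin-2 (right). The second saline library lies below the gene's mean in 10 of 11 linkers and the first vasostatin-2 library in 11, Itgax and Itgb2 are high in the second saline library, and Itgal is the one row in which all saline cells lie above all vasostatin-2 cells.

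The second saline library also held the most red cell transcripts. Red cell markers, led by Hba-a1 and Hbb-bs, summed to 43391 TPM there, against 7013 and 9494 TPM in the other saline libraries and 8706, 1406 and 1149 TPM with vasostatin-2. All 7 tested were below 0, 1 with an unadjusted p under 0.05 by edgeR, beside 7.14% of all genes tested. The part of red cell transcripts in the low linker and high leukocyte integrin values of the second saline library was not tested. Removing the marker genes of red cells, skeletal muscle, Schwann cells and adipocytes before scaling left the counts of every member as they were. All 7 leukocyte integrins stayed below 0 and the median of the linkers was −0.0024. This step changes only the scaling, so it cannot show the part of these cells in the members' values.

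Matrix proteins that these receptors bind were in 8 cases above and in 16 cases below 0 among 24 tested of 27. The 2 most abundant, Col3a1 (6178 TPM on average) and Col1a1 (4598 TPM), had log2 fold changes of −0.15 and −0.16. An unadjusted p under 0.05 by edgeR was found in 2 of the 24, beside 7.14% of all genes tested. Groups that did not overlap in CPM were also found in 2 of the 24, beside 12.8% of all genes. The 2 with an unadjusted p under 0.05 were the basement membrane collagens Col4a1 and Col4a2. Col4a1 was at 415, 406 and 456 TPM with saline and 373, 315 and 351 TPM with vasostatin-2. Col4a2 was at 232, 222 and 256 TPM with saline and 215, 178 and 197 TPM with vasostatin-2. Every vasostatin-2 library was below every saline library in both, with log2 fold changes of −0.29 and −0.26 and adjusted p-values of 0.681 and 0.684 by edgeR. The 2 genes lie next to each other and are transcribed from a shared promoter region, so they are not independent.

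Of 9 tested cell-surface counter-receptors among 11, 1 was above and 8 were below 0, and none had an unadjusted p under 0.05. C3, whose fragments Mac-1 binds, and Thy1 were the most abundant, with log2 fold changes of −0.10 and −0.057. Icam1, the main ligand of LFA-1, was at 76.9, 78.3 and 80.4 TPM with saline and 66.7, 82.7 and 73.4 TPM with vasostatin-2, and its groups overlapped. Vcam1, the ligand of α4 integrins, was at 66.4, 50.3 and 45.9 TPM with saline and 47.0, 41.6 and 43.0 TPM with vasostatin-2. Vasostatin-2 libraries 2 and 3 were the lowest of the 6 (log2 fold change −0.30).

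Of 19 tested regulators of integrin activation among 20, 10 were above and 9 below 0. In each direction 1 had an unadjusted p under 0.05 by edgeR, beside 7.14% of all genes tested. Rap1b, the small GTPase that recruits talin, and Cd9, a tetraspanin, were the most abundant, with log2 fold changes of 0.013 and 0.30. Cyth1, cytohesin-1, which binds the β2 tail and favours LFA-1 adhesion, was at 39.6, 47.9 and 58.1 TPM with saline and 34.3, 34.7 and 34.5 TPM with vasostatin-2. All 3 vasostatin-2 libraries lay near 34 TPM and below each saline library (log2 fold change −0.48, SE 0.13 and unadjusted p 0.00919, adjusted p 0.585 by edgeR). Kank2, which binds talin at the rim of adhesions, was at 47.0, 32.7 and 45.0 TPM with saline and 49.0, 49.3 and 52.6 TPM with vasostatin-2. All 3 vasostatin-2 libraries were above each saline library, with a log2 fold change of 0.29, SE 0.11 and unadjusted p 0.0351 and an adjusted p of 0.681 by edgeR. The groups did not overlap in CPM in 1 further gene of this list, Itgb1bp1, which had a log2 fold change of 0.14. Of all genes tested, 12.8% had groups that did not overlap.

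Of 30 tested among 31 further adaptors and kinases, a list that also holds the leukocyte subunit Itgad, 18 were above and 12 below 0, and none had an unadjusted p under 0.05. Actn4 and Csrp1, which bundle or bind actin, were the most abundant, with log2 fold changes of 0.049 and 0.055. In CPM the groups did not overlap in 3 of the 30, a share not above the 12.8% of all genes tested. They were higher in Trip6 and lower in Src and Crk, with log2 fold changes of 0.15, −0.18 and −0.10. The tyrosine kinase Src was at 21.1, 17.6 and 18.2 TPM with saline and 17.1, 16.2 and 16.5 TPM with vasostatin-2, with an unadjusted p of 0.0538 by edgeR.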

How the data were processed

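Poly(A) RNA of 6 injured femoral arteries, 3 saline and 3 vasostatin-2, was sequenced on a BGISEQ instrument, per the labels' protocols. Per the submitters' processing notes, the tools included HISAT2 2.1.0 and DESeq2 1.26.0, with GRCm38.p6 as the build. The counting tool and strand setting are not given in the sources used here, so overlapping genes could not be separated: 13 members share exonic bases with another gene. The authors deposited an estimated count per gene and library (65.6% whole numbers) and TPM values. The same table holds the authors' own log2 fold changes with a p-value and a q-value each, used here for Itgal alone.

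Estimated counts were rounded, filtered with edgeR's filterByExpr (14557 of 18476 genes left) and scaled by TMM (factors 0.985 to 1.01). The robust quasi-likelihood test of edgeR 4.0.16 (R 4.3.3) had treatment as its only term, with Benjamini-Hochberg adjustment over all genes. Itgb6 and Itgb8 did not pass the filter. The biological coefficient of variation was 16.1%, and the scripts were tested on simulated counts. DESeq2 1.42.0, limma-voom (limma 3.58.1), other scalings and filters, replicate number as a block and single libraries left out were alternatives. Leaving out replicate 3 of both groups was added after seeing the data, because Schwann cell and skeletal muscle transcripts stood out there. Libraries within a group were not alike within counting noise, so none was treated as a duplicate, and p-values measure the spread between these samples.

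The 36 members, the 4 pathway lists and the 14 cell type lists were chosen with earlier results of these data known. Values in every library are given for members with an unadjusted p under 0.05 or groups that do not overlap and for the 2 members of each role with the highest TPM. Of each list the 2 genes with the highest TPM are named, except 1 that is not reported here. Itga4, Itga8, Itgax, Itgb3, Itgb4, Itgb7, Itgb8, Fermt2, Vcl and the further list genes shown were chosen after their values were seen.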

Additional observations from a re-analysis of the deposited data

How the results depend on the processing

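At an unadjusted p under 0.05 by edgeR there were 1040 genes and 1 member. With single libraries left out these counts ran from 496 (without vasostatin-2 replicate 2) to 1654 (without saline replicate 2) genes and from 1 to 3 members. With DESeq2, with the replicate block and without replicate 3 of both groups there were 2 members, Itgal and Itgb4. Over all genes these settings gave 966, 890 and 719 genes in the same order. The unadjusted p of Itgb4 was 0.0480 by DESeq2, and by edgeR 0.0489 with the block and 0.0403 without replicate 3 of both groups. Without vasostatin-2 replicate 1 Itgb4 was at 0.74 with p 0.0346, without saline replicate 1 Itga1 was at −0.34 with p 0.0411, and without vasostatin-2 replicate 3 Itgb3 was at −0.33 with p 0.0473, all by edgeR. At an adjusted p under 0.05 there were 0 genes by edgeR, 113 by DESeq2 and 0 to 2 with single libraries left out, and 0 members in each of these fits. The cause of these shifts was not tested. Deviations from the group means correlated at −0.13, 0.040 and 0.025 between libraries of the same number, so the numbers were not taken as pairs. The class medians moved by less than the spread between replicates, but only the leukocyte median kept its direction in every setting. The linker median was 0.070 without saline replicate 1 and −0.090 without saline replicate 2. The matrix median was −0.026 without vasostatin-2 replicate 3 and −0.00060 with limma-voom. Of 34 members, 10 kept their sign in all 16 settings: Itga1, Itga3, Itga5, Itga6, Itga8, Itgal, Itgb4, Itgb5, Itgb7 and Ptk2. The other 24 changed sign with a library left out, singly or replicate 3 of both groups, over these ranges of log2 fold change: Itga2 (−0.18 to 0.13), Itga2b (−0.12 to 0.27), Itga4 (−0.15 to 0.026), Itga7 (−0.075 to 0.30), Itga9 (−0.14 to 0.079), Itga10 (−0.072 to 0.39), Itga11 (−0.088 to 0.58), Itgav (−0.14 to 0.058), Itgae (−0.37 to 0.053), Itgam (−0.15 to 0.067), Itgax (−0.97 to 0.19), Itgb1 (−0.074 to 0.089), Itgb2 (−0.34 to 0.035), Itgb3 (−0.33 to 0.012), Ilk (−0.013 to 0.13), Tln1 (−0.051 to 0.070), Tln2 (−0.33 to 0.072), Vcl (−0.21 to 0.16), Fermt2 (−0.21 to 0.029), Fermt3 (−0.0063 to 0.18), Pxn (−0.0019 to 0.067), Parva (−0.062 to 0.15), Lims1 (−0.090 to 0.095) and Zyx (−0.22 to 0.077). With limma-voom Itga7 was at −0.0049, Itgb1 at −0.00060 and Tln1 at −0.0094. Vcl was at 0.0024 with upper-quartile scaling, 0.0010 with no low-count filter and 0.030 with the block. Other scalings moved the median of all genes by at most 0.0027. With 3 libraries per group, differences of the size seen in most members were within the spread between libraries.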

Other observations

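Fibroblast markers, led by Dcn and Gsn, were all above 0 (8 of 8), 3 with an unadjusted p under 0.05 by edgeR and no overlap between groups. Pdgfra, 1 of the 8, passed the adjusted threshold by DESeq2 (0.0143). Over all genes tested, 7.14% had an unadjusted p under 0.05 by edgeR and 12.8% had no overlap in CPM. By DESeq2, 0.809% of genes with a defined adjusted p passed. The summed level of the fibroblast markers was 2836 to 4088 TPM with saline and 3858 to 4560 TPM with vasostatin-2. Endothelial markers, led by Pecam1 and Cdh5, were above 0 in 3 and below 0 in 5 of 8 genes, with 1 in each direction at an unadjusted p under 0.05. The B cell markers, led by Cd79b and Cd79a, were above 0 in 2 and below 0 in 3 of 5 genes, none with an unadjusted p under 0.05. The epithelial markers, led by Krt5 and Trp63, were below 0 in all 4 tested of 7, also with none under it. The adipocyte markers, led by Fabp4 and Cfd, were above 0 in 4, 1 of them, Lep, with an unadjusted p of 0.0312 by edgeR and a log2 fold change of 1.59, and below 0 in 2 of 6 genes, and their summed level was 7780 to 16018 TPM with saline and 11853 to 16224 TPM with vasostatin-2.

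Among integrin subunits and kindlins outside the 36 members, Itgad, the αD chain, was between 0.06 and 0.38 TPM, and Fermt1, the epithelial kindlin, did not exceed 0.08 TPM. Fibrinogen chains, ligands of the platelet integrin, had counts almost entirely in the second saline library, with 92 counts of Fga there and at most 5 in each of the others. The deposited strand of Itga1, Itga2b, Tln2 and Ptk2 is opposite to that of the GENCODE annotation.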
